A study of Mus musculus with 17 samples.

Results

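The 10 genes described here encode receptor chains for growth factors and cytokines: Flt3, Kit, Il7r, Il4ra, Il13ra1, Il10ra, Csf2ra, Csf2rb, Ifnar1 and Ifnar2. They were taken by symbol, and each was measured by 1 probe set annotated to that gene alone, so they are 10 of the 19751 genes tested. RNA came from plasmacytoid dendritic cells of C57BL/6 bone marrow, enriched magnetically by depletion of other cells and then sorted as CD11c-intermediate, B220+ and SiglecH+, and it was hybridised to 17 Affymetrix arrays. The groups were medium (2 arrays, replicates 1 and 3), LIF, CpG-A (oligonucleotide 2216), CpG-A + LIF, CpG-B (oligonucleotide 1826) and CpG-B + LIF (3 arrays each). LIF, leukaemia inhibitory factor, was used at 10 ng/ml for 20 to 24 h in total and was added 1 h before CpG where both were given. CpG was used at 6 µg/ml for 19 to 23 h (18 to 24 h in the design text). All groups were wild-type sorted cells in culture, and the labels give no age and do not say whether replicates came from separate mice or a pool.

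Cytokine receptors set which growth and survival signals a dendritic cell can hear. FLT3 and KIT are receptor tyrosine kinases of haematopoietic progenitors, and FLT3 signalling is required for the development of plasmacytoid dendritic cells. The other chains have no kinase of their own and signal through JAK kinases and STAT proteins: IL-7, IL-4, IL-13, IL-10 and GM-CSF each use a ligand-binding chain joined to a shared partner, and type I interferon uses IFNAR1 with IFNAR2. LIF itself acts through its receptor and gp130 on JAK kinases and STAT3, and CpG DNA acts through TLR9.

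The deposited values have lost their decimal mark, so only the digits of each intensity are known. Digits are written below with a mark after the first one: 9.07 stands for 9.07 times an unknown power of 10, and 9.72 and 1.03 can be neighbours. Every log2 difference therefore has a nearest reading, between -1.66 and 1.66 and given with its SE, and another one 3.32 away with the opposite sign. A gene was called at a limma adjusted p under 0.05 over all genes. Its direction was read for nearest readings up to 1.11 (2.15-fold), where the opposite direction would need a change of 4.64-fold or more. Expression levels, and the order of levels between genes, cannot be read. In bulk RNA, fewer cells of a type and less RNA per cell cannot be told apart.

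**Figure D1:**
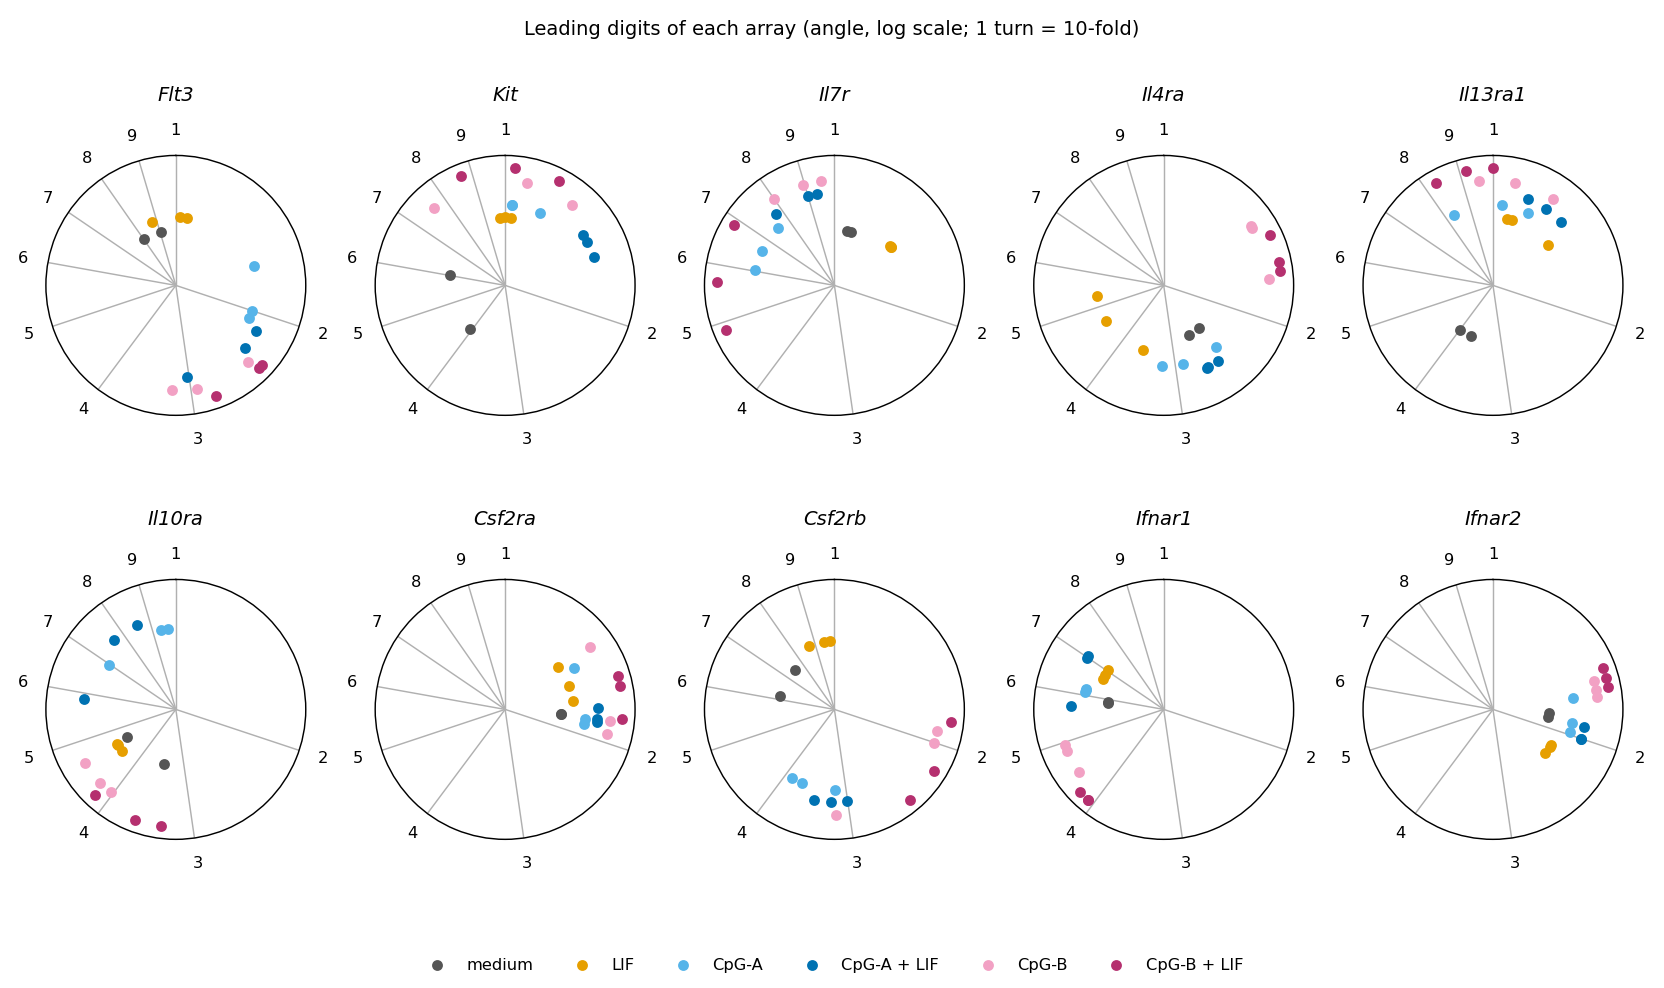
Leading digits of the 10 receptor genes in all 17 arrays. The angle is the digit value on a log scale (1 full turn is a 10-fold change), the rings separate the 6 groups for legibility, and each point is 1 array. Csf2ra, Ifnar1 and Ifnar2 keep all arrays within a narrow arc, whereas the medium arrays of Il13ra1 stand apart from every other group. Those of Kit lie outside the range of the other arrays. However, 1 of them (6.04) is nearer to a CpG-B array (7.62) than to the other medium array (4.06).

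Of the 9 comparisons, CpG-A + LIF vs CpG-B + LIF gave the largest number of receptors with 1 readable direction. Il4ra, Il10ra, Il7r, Kit, Csf2rb and Ifnar1 all read higher with CpG-A + LIF than with CpG-B + LIF, and none read lower. These 6 of 10 stand against 16.9% of all genes called in that comparison, where 5.63% of all genes read higher, 8.0% lower and 3.27% were open. The median reading of the 10 genes was 0.57, and that of all genes 0.05. Without LIF, CpG-A vs CpG-B called 5 of 10 (13.0% of all genes): Il10ra, Il4ra, Csf2rb and Ifnar1 read higher with CpG-A (4.42% of all genes) and Flt3 read lower (6.14%). CpG-A vs medium called 6 of 10 (16.7% of all genes): 1 higher (4.91%), 2 lower (7.15%) and 3 open (4.64%). CpG-B vs medium called 5 of 10 (19.2%): 1 higher (6.94%), 1 lower (7.0%) and 3 open (5.27%). LIF vs medium called 3 of 10 (0.810%): 2 higher (0.273%) and 1 open (0.314%). These 3 comparisons share the medium arrays.

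**Figure D2:**
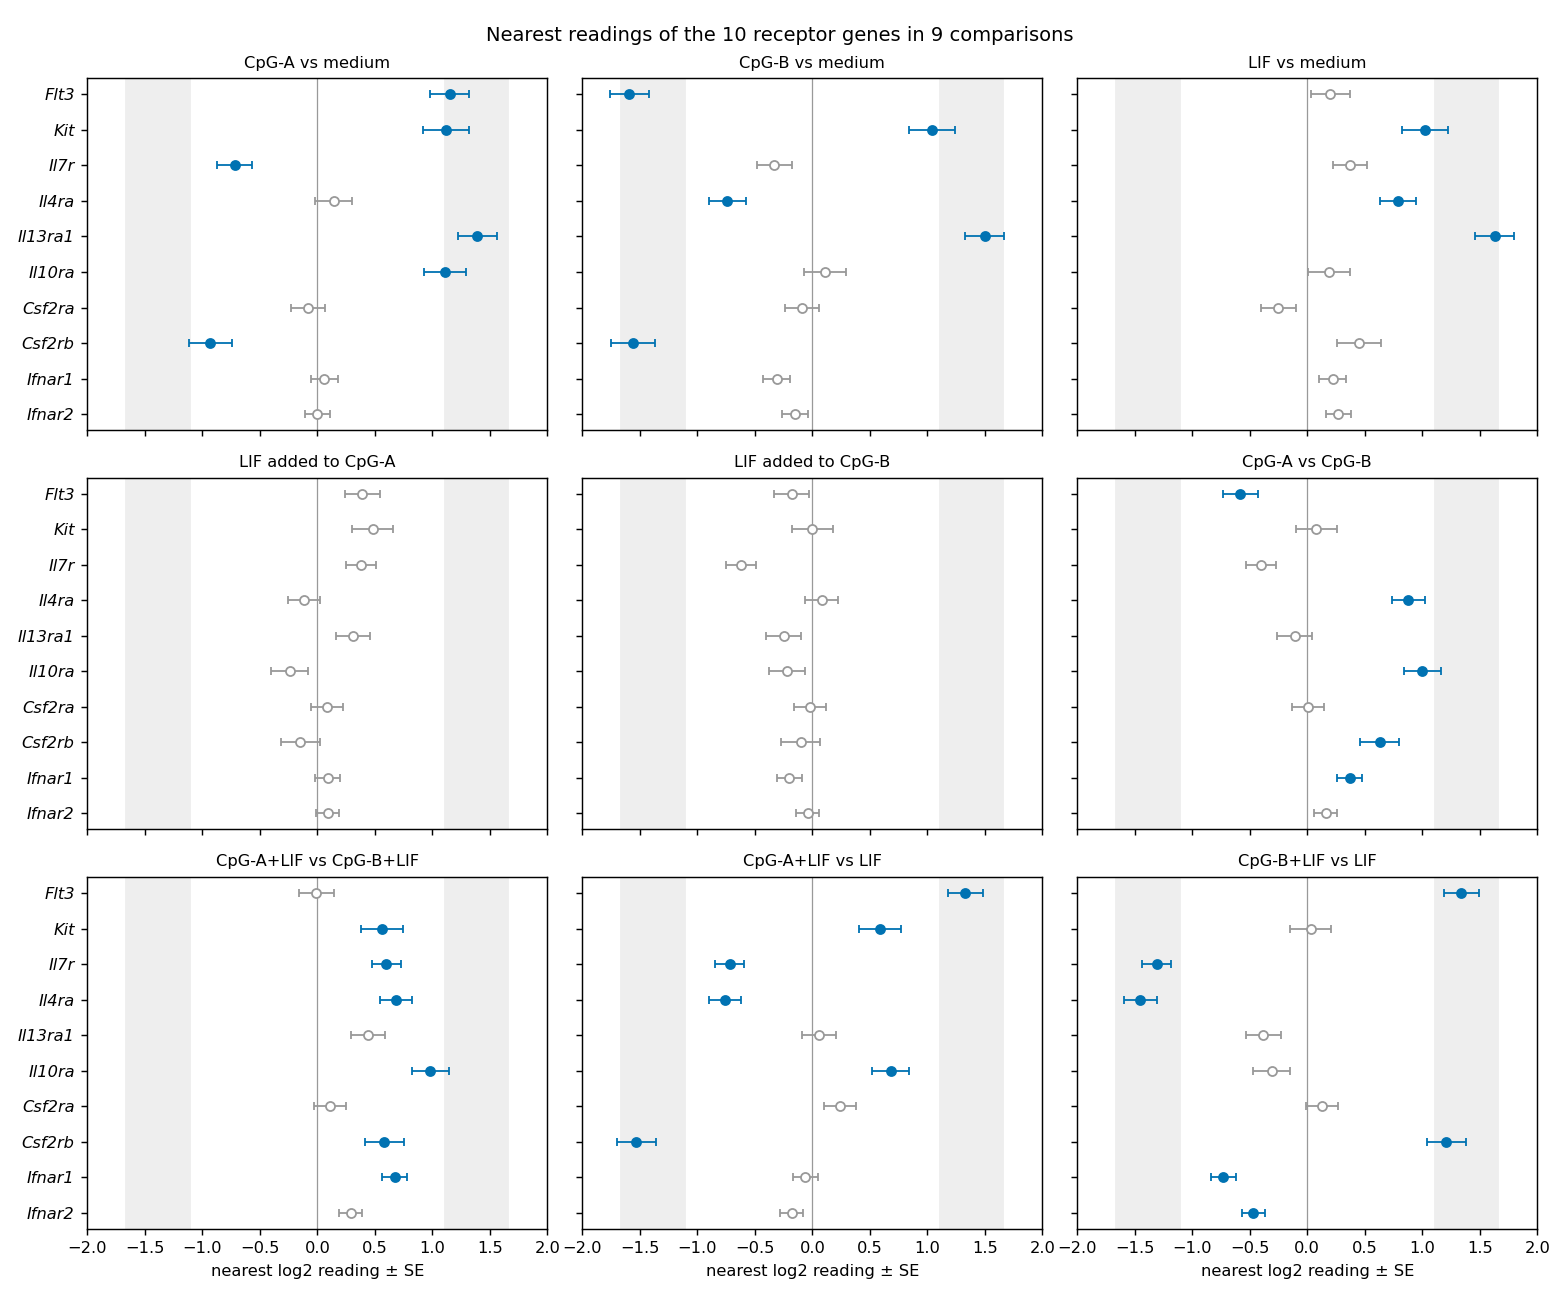
Nearest log2 readings ± SE of the 10 receptor genes in 9 comparisons. Filled blue points passed an adjusted p under 0.05, open grey points did not, and grey bands mark readings over 1.11 in size, where the direction is open. In the panel for CpG-A+LIF vs CpG-B+LIF, the 6 filled points all lie to the right of 0, between 0.56 and 0.98.

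Flt3, the receptor for the ligand that drives plasmacytoid dendritic cell development, changed with both CpG classes, with no readable direction. The digits were 9.07 and 8.03 in medium and 1.06, 8.77 and 1.02 with LIF. They were 2.07, 1.63 and 2.00 with CpG-A and 2.94, 2.40 and 3.21 with CpG-B. Medium and LIF arrays overlapped, and both lay apart from all CpG arrays. CpG-A vs medium read 1.15 ± 0.17 (or -2.17, adjusted p = 0.000105) and CpG-B vs medium -1.59 ± 0.17 (or 1.73, adjusted p = 5.12e-06). The direct comparison of CpG-A with CpG-B read -0.58 ± 0.15 (adjusted p = 0.0148), lower with CpG-A. With that value, the readings against medium add up either as 1.15 and 1.73 or as -2.17 and -1.59, and the nearest readings of 1.15 and -1.59 cannot both hold. The nearest reading of CpG-B vs medium turned to 1.64 without medium replicate 3 and also without CpG-B replicate 3. The difference between the CpG classes no longer passed when CpG-A replicate 2 was left out (-0.47, adjusted p = 0.0777). The same held for CpG-B replicate 3 (-0.49, adjusted p = 0.0766) and CpG-B replicate 1 (-0.55, adjusted p = 0.0566).

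With LIF present, the CpG classes gave overlapping Flt3 digits. The digits were 2.15, 2.33 and 3.02 with CpG-A + LIF and 2.78, 2.37 and 2.34 with CpG-B + LIF, and the difference read -0.01 ± 0.15 (adjusted p = 0.978). Against LIF alone, both mixtures were called at 1.33 ± 0.15 (or -1.99) for CpG-A and 1.34 ± 0.15 (or -1.98) for CpG-B. Flt3l, which encodes the ligand, read lower with CpG-A vs medium (-0.72 ± 0.19) and with CpG-B vs medium (-0.87 ± 0.19).

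Kit, the stem cell factor receptor of progenitors and mast cells, was called in LIF, CpG-A and CpG-B vs medium. The digits were 6.04 and 4.06 in medium, 1.03, 9.72 and 1.00 with LIF, and 1.18, 1.03 and 1.03 with CpG-A. CpG-B gave 1.08, 1.29 and 7.62, CpG-B + LIF 1.03, 1.19 and 8.69, and CpG-A + LIF 1.59, 1.44 and 1.49. The pair of medium arrays lay outside the range of all other arrays, and CpG-A + LIF lay beyond the others on the far side. LIF vs medium read 1.02 ± 0.20 higher (or -2.31, adjusted p = 0.0208) and CpG-B vs medium 1.04 ± 0.20 higher (or -2.28, adjusted p = 0.000841). CpG-A vs medium read 1.12 ± 0.20 (or -2.20), just past the limit on direction. Without medium replicate 1 the LIF and CpG-B readings rose to 1.30 and 1.33, past that limit, so their direction rests on both medium arrays. The LIF call needed medium replicate 3 (0.73 and adjusted p = 0.3 when left out) and LIF replicate 1 (0.99 and adjusted p = 0.0641), and it was lost in a fit of the LIF and medium arrays alone (adjusted p = 0.105).

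Kit also read 0.56 ± 0.18 higher with CpG-A + LIF than with CpG-B + LIF (adjusted p = 0.038) and 0.59 ± 0.18 higher than with LIF alone (adjusted p = 0.0274). The first call was lost without any 1 of CpG-A + LIF replicates 1, 2 or 3 or CpG-B + LIF replicates 1 or 3 (readings from 0.44 to 0.59, adjusted p from 0.0627 to 0.153). The second was lost without any 1 of the 6 arrays compared (readings from 0.55 to 0.62, adjusted p from 0.0501 to 0.0902). Markers of mast cells and basophils moved with Kit in the first of these comparisons. Of 5 measured markers, 4 were called (16.9% of all genes), 3 of them higher with CpG-A + LIF (5.63%) and 1 open (3.27%). In CpG-A, CpG-B and LIF vs medium, where Kit was also called, 0 of the 5 were called (16.7%, 19.2% and 0.810% of all genes). Cpa3, a mast cell protease, read 0.99 ± 0.31, Ms4a2, a chain of the IgE receptor, 0.97 ± 0.30, and the transcription factor Gata2 0.65 ± 0.21. Fcer1a, the IgE-binding chain, read 1.14 ± 0.25 (or -2.18), and the basophil protease Mcpt8 0.54 ± 0.22 (adjusted p = 0.118). In CpG-A + LIF vs LIF, 1 of the 5 was called (17.4% of all genes), Fcer1a at 0.79 ± 0.25 higher (adjusted p = 0.0321). Of 2 measured progenitor markers, 0 were called in CpG-A + LIF vs CpG-B + LIF, and 0 in CpG-A, CpG-B and LIF vs medium. In CpG-A + LIF vs LIF 1 of the 2 was called (17.4% of all genes), Cd34, with its direction open. Levels of the mast cell, basophil and progenitor markers cannot be read, and their part in the Kit readings was not tested.

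Il7r, a chain of the receptors for IL-7 and TSLP, could be followed over all groups, since its 17 arrays can be placed within 2.94-fold. The digits were 1.12 and 1.09 in medium and 1.43, 1.42 and 1.43 with LIF. They were 7.52, 6.60 and 6.03 with CpG-A, 9.35, 7.78 and 9.01 with CpG-A + LIF, 8.96, 9.53 and 7.99 with CpG-B, and 5.69, 6.86 and 4.87 with CpG-B + LIF. Within that span LIF was highest, medium was next, and all CpG arrays lay below both, where CpG-A + LIF and CpG-B overlapped each other and CpG-A overlapped CpG-B + LIF. CpG-A vs medium read -0.72 ± 0.15 (adjusted p = 0.00197), and CpG-A + LIF vs LIF -0.72 ± 0.13 (adjusted p = 0.00077). CpG-B + LIF vs LIF read -1.31 ± 0.13 (or 2.01, adjusted p = 1.4e-06). CpG-B vs medium read -0.33 ± 0.15 and did not pass (adjusted p = 0.151).

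LIF went with opposite nearest readings of Il7r under CpG-A and CpG-B, neither of which passed the test. LIF added to CpG-A read 0.38 ± 0.13 (adjusted p = 0.591), LIF added to CpG-B -0.62 ± 0.13 (adjusted p = 0.111) and LIF vs medium 0.37 ± 0.15 (adjusted p = 0.382). In each of these 3 comparisons the arrays compared did not overlap. The LIF effect under CpG-B minus that in medium was -0.98 ± 0.20 (adjusted p = 0.0646). Over the alternatives run, that adjusted p lay between 0.0364 and 0.148. CpG-A + LIF read 0.60 ± 0.13 higher than CpG-B + LIF (adjusted p = 0.0042), whereas CpG-A vs CpG-B read -0.40 ± 0.13 without LIF (adjusted p = 0.0613). That second difference passed without CpG-A replicate 1 (-0.48, adjusted p = 0.0459) and without CpG-B + LIF replicate 2 or 3 (adjusted p = 0.0441 and adjusted p = 0.0461).

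**Figure D3:**
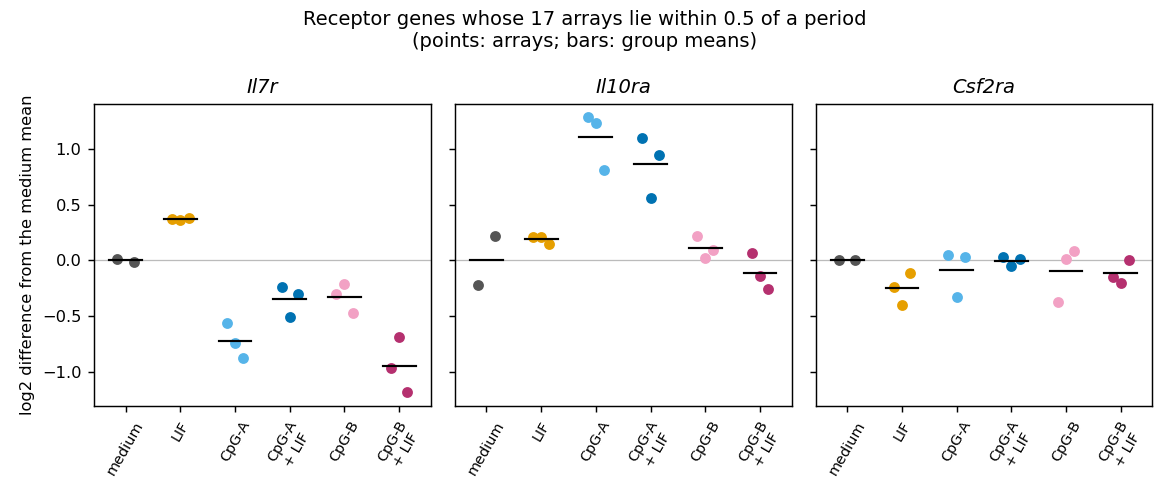
Log2 difference of each array from the medium mean for Il7r, Il10ra and Csf2ra, 3 of the genes whose arrays lie within 0.5 of the 10-fold period on the log scale. Points are arrays and bars are group means. Il7r is highest with LIF and lowest with CpG-B + LIF, Il10ra is highest with CpG-A, and the groups of Csf2ra overlap except that LIF lies below medium and CpG-A + LIF.

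Il4ra, the chain shared by the receptors for IL-4 and IL-13, read higher with LIF and lower with CpG-B. The digits were 2.45 and 2.67 in medium, 5.30, 3.55 and 4.60 with LIF, and 3.19, 2.90 and 2.44 with CpG-A. They were 2.52, 2.64 and 2.65 with CpG-A + LIF, 1.74, 1.44 and 1.43 with CpG-B and 1.65, 1.51 and 1.70 with CpG-B + LIF. Placed around medium, LIF arrays lay above all others and both CpG-B groups below all others, while medium and both CpG-A groups overlapped. So placed, the arrays span 3.7-fold, and the order of CpG-B + LIF and LIF is open (-1.45 or 1.87). LIF vs medium read 0.79 ± 0.16 (1.73-fold, adjusted p = 0.0265) and CpG-B vs medium -0.74 ± 0.16 (adjusted p = 0.00277). The LIF call was lost without medium replicate 1 (0.73, adjusted p = 0.275), medium replicate 3 (0.85, adjusted p = 0.135), LIF replicate 1 (0.66, adjusted p = 0.104) or LIF replicate 3 (0.76, adjusted p = 0.0652), and with only those groups fitted (adjusted p = 0.22).

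The CpG classes differed for Il4ra with and without LIF. CpG-A vs CpG-B read 0.88 ± 0.14 higher (adjusted p = 0.000364), and CpG-A + LIF vs CpG-B + LIF 0.68 ± 0.14 higher (adjusted p = 0.0026). LIF added to CpG-A read -0.12 ± 0.14 (adjusted p = 0.966) and LIF added to CpG-B 0.08 ± 0.14 (adjusted p = 0.952). The difference of these from the LIF effect in medium was -0.91 ± 0.22 for CpG-A (adjusted p = 0.196) and -0.71 ± 0.22 for CpG-B (adjusted p = 0.242). Against LIF alone, CpG-A + LIF read -0.76 ± 0.14 and CpG-B + LIF -1.45 ± 0.14 (or 1.87).

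Il13ra1 encodes the chain that binds IL-13 and pairs with the Il4ra product. Its digits were 3.99 and 3.68 in medium, 1.11, 1.08 and 1.41 with LIF, 1.18, 8.29 and 1.04 with CpG-A, and 1.25, 9.51 and 1.08 with CpG-B. CpG-A + LIF gave 1.25, 1.15 and 1.35, and CpG-B + LIF 1.00, 8.31 and 9.18. The medium arrays stood apart, and the treated groups overlapped except that CpG-B + LIF lay apart from LIF and CpG-A + LIF. Each change against medium was called with its direction open: 1.63 ± 0.17 (or -1.69) with LIF, 1.39 ± 0.17 (or -1.93) with CpG-A and 1.5 ± 0.17 (or -1.82) with CpG-B. The LIF reading lies so near the edge of the range of readings that its sign turned without medium replicate 1 (-1.63), LIF replicate 1 (-1.64) or LIF replicate 2 (-1.62). CpG-A + LIF vs CpG-B + LIF read 0.44 ± 0.15 and did not pass (adjusted p = 0.0512). It passed without any 1 of 5 arrays outside that comparison: CpG-B replicate 1 or 2, CpG-A replicate 1 or 2 or LIF replicate 3 (adjusted p from 0.0351 to 0.0489).

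Il10ra, the ligand-binding chain of the receptor through which IL-10 restrains dendritic cells, was higher with CpG-A than with CpG-B. The digits were 3.41 and 4.65 in medium, 4.62, 4.60 and 4.42 with LIF, and 9.65, 9.35 and 6.98 with CpG-A. They were 8.55, 5.87 and 7.66 with CpG-A + LIF, 4.63, 4.04 and 4.24 with CpG-B, and 4.17, 3.60 and 3.31 with CpG-B + LIF. All CpG-A arrays, with or without LIF, lay above every other array. CpG-A vs CpG-B read 1.00 ± 0.16 higher (1.99-fold, adjusted p = 0.000337), and CpG-A + LIF vs CpG-B + LIF 0.98 ± 0.16 higher (adjusted p = 0.000314). CpG-A vs medium read 1.11 ± 0.18 (or -2.22, adjusted p = 0.000261), right at the limit on direction, and it moved to 1.33 without medium replicate 3. The 2 comparisons of CpG classes each reached 1.14, also past that limit, without CpG-A replicate 3 and without CpG-A + LIF replicate 2. CpG-A + LIF vs LIF read 0.68 ± 0.16 higher (adjusted p = 0.00586). CpG-B vs medium read 0.11 ± 0.18 (adjusted p = 0.755). Il10, the ligand gene, was called with CpG-A vs medium at 1.23 ± 0.33 (or -2.09).

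Csf2ra and Csf2rb encode the chains of the GM-CSF receptor: the first binds GM-CSF, and the second is the signalling chain shared with the receptors for IL-3 and IL-5. Csf2ra was not called in any of the 9 comparisons by limma, nor did it reach an unadjusted p under 0.05 in any. All 17 of its arrays can be placed within 1.39-fold, from digits of 1.39 in a LIF array to 1.94 in a CpG-B array. The LIF arrays lay below those of medium and of CpG-A + LIF, and the other groups overlapped. Its nearest readings ranged from -0.25 ± 0.15 for LIF vs medium to 0.24 ± 0.14 for CpG-A + LIF vs LIF. Differences near 10-fold would look the same.

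Csf2rb was called in 6 of 9 comparisons. The digits were 6.13 and 7.51 in medium, 8.68, 9.43 and 9.79 with LIF, 3.16, 3.87 and 3.69 with CpG-A, and 3.43, 3.20 and 3.01 with CpG-A + LIF. CpG-B gave 2.00, 3.15 and 1.92, and CpG-B + LIF 2.18, 2.45 and 1.85. Medium and LIF arrays lay apart from all CpG arrays. CpG-A vs medium read -0.93 ± 0.19 (adjusted p = 0.00159), lower, and CpG-B vs medium -1.56 ± 0.19 (or 1.76). Against LIF alone, CpG-A + LIF read -1.53 ± 0.17 (or 1.79) and CpG-B + LIF 1.21 ± 0.17 (or -2.11), and those nearest readings do not add up with the difference between the CpG mixtures.

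Between the CpG classes, Csf2rb read 0.63 ± 0.17 higher with CpG-A (adjusted p = 0.016) and 0.58 ± 0.17 higher with CpG-A + LIF than with CpG-B + LIF (adjusted p = 0.0222). The first call was lost without CpG-A replicate 2 or 3 or CpG-B replicate 1 or 3 (readings from 0.50 to 0.61, adjusted p from 0.0557 to 0.0897), and in a fit of those groups alone (adjusted p = 0.0595). The second was lost without CpG-A + LIF replicate 1 or 2 or CpG-B + LIF replicate 1 or 3 (readings from 0.47 to 0.59, adjusted p from 0.0508 to 0.1). CpG-B vs medium turned to 1.61 without medium replicate 1 and to 1.53 without CpG-B replicate 2. Csf2rb2, a close relative of Csf2rb that serves the IL-3 receptor, read -1.0 ± 0.21 in CpG-A vs medium and 0.85 ± 0.19 in CpG-A vs CpG-B. The sequences of this gene pair are alike, so their probe sets may share signal.

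Ifnar1 and Ifnar2 encode the receptor for type I interferon and are neighbours on chromosome 16, with 1 protein-coding gene between them, Il10rb, the shared chain of the IL-10 receptor. Ifngr2, a chain of the interferon gamma receptor, follows directly after Ifnar1 in the RefSeq annotation of GRCm38.p6. The upstream bases of this pair and of Il7r and Il4ra are shown because these 4 genes had their highest group mean with LIF. That order holds with the arrays of each gene unfolded at the widest gap between their digits. Csf2rb had it too, but the table of promoters has no entry for it. Of the 4 genes shown, only Il4ra was called in LIF vs medium. The palindrome TTCNNNGAA, the textbook binding pattern of STAT proteins, is in capitals. The sequences are from RefSeq and run 5′ to 3′ over the 250 bases before the start site. The windows are chr16:91372533-91372782 (plus strand) for Ifnar2, chr16:91484965-91485214 (plus strand) for Ifnar1, chr15:9529877-9530126 (minus strand) for Il7r and chr7:125552021-125552270 (plus strand) for Il4ra, all in GRCm38.p6.
Ifnar2: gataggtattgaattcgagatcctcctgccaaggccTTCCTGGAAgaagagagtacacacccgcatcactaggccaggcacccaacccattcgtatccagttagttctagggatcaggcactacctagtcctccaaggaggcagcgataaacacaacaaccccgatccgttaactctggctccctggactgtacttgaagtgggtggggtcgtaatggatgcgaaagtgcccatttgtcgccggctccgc
Ifnar1: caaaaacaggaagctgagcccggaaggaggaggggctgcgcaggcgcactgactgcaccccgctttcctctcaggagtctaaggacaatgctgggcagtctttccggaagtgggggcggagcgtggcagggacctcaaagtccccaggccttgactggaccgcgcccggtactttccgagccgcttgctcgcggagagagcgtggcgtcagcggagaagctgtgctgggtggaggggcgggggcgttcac
Il7r: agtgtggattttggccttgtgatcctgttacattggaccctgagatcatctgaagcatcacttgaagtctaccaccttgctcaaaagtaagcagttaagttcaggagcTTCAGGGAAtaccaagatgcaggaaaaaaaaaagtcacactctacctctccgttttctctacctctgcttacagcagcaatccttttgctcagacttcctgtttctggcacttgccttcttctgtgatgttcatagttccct
Il4ra: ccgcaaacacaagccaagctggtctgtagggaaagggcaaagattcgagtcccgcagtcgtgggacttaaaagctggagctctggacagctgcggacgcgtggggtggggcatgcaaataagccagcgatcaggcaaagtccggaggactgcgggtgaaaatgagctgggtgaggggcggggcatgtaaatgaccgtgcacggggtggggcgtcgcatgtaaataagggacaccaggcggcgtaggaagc

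The table of promoters held 8 of the 10 receptor genes. Among them, the palindrome occurred in Ifnar2, starting at base -214 from the start site (TTCCTGGAA), and in Il7r, at base -142 (TTCAGGGAA). It reads the same on both strands and is found in 7.02% of 32851 promoter windows of that length. The core of interferon response elements, searched as GAAA, any 2 bases and GAAA again (2.98% of windows), and the NF-kB consensus (7.25%) were not found in the windows of these 8 genes, on either strand. The E-box CANNTG, the pattern that E proteins bind, was in 6 of the 8 and in 66.2% of all windows. A match describes the letters and is not a measured site.

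Ifnar1 kept all 17 arrays within 1.73-fold and Ifnar2 within 1.48-fold. The digits of Ifnar1 were 5.86 and 5.89 in medium, 7.06, 6.82 and 6.66 with LIF, and 6.17, 6.08 and 6.15 with CpG-A. They were 7.04, 5.70 and 6.98 with CpG-A + LIF, 4.84, 4.95 and 4.45 with CpG-B and 4.08, 4.22 and 4.08 with CpG-B + LIF. Both CpG-B groups lay below all other arrays, and CpG-B + LIF lay below CpG-B. Ifnar1 read 0.67 ± 0.11 higher with CpG-A + LIF than with CpG-B + LIF (1.59-fold, adjusted p = 0.000272), and -0.73 ± 0.11 with CpG-B + LIF vs LIF (adjusted p = 5.36e-05). CpG-A vs CpG-B read 0.37 ± 0.11 higher (adjusted p = 0.028), and CpG-B vs medium read -0.31 ± 0.12 and did not pass (adjusted p = 0.0882). The call of CpG-A vs CpG-B was lost without CpG-A replicate 1, 2 or 3 or CpG-B replicate 1 or 3 (readings from 0.33 to 0.39, adjusted p from 0.0599 to 0.106), and with those groups alone (adjusted p = 0.0832).

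Ifnar2 gave a like order of groups, with smaller readings between the CpG classes. The digits were 1.82 and 1.87 in medium, 2.20, 2.30 and 2.18 with LIF, and 1.89, 1.97 and 1.69 with CpG-A. They were 2.00, 2.00 and 1.91 with CpG-A + LIF, 1.66, 1.70 and 1.61 with CpG-B, and 1.61, 1.66 and 1.56 with CpG-B + LIF. LIF arrays lay above all others. CpG-A arrays overlapped those of medium, CpG-A + LIF and CpG-B, and the pair of CpG-B groups overlapped each other. CpG-A vs CpG-B read 0.16 ± 0.10 and did not pass (adjusted p = 0.392). CpG-B + LIF vs LIF read -0.47 ± 0.10 (1.38-fold lower, adjusted p = 0.00191), the 1 call for this gene. CpG-A + LIF vs CpG-B + LIF read 0.29 ± 0.10 (adjusted p = 0.0584), and LIF vs medium 0.27 ± 0.11 (adjusted p = 0.405).

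Their neighbours had readings of their own. Il10rb read 0.50 ± 0.12 higher with CpG-A than with CpG-B (adjusted p = 0.00936) and 0.66 ± 0.12 higher with CpG-A + LIF than with CpG-B + LIF (adjusted p = 0.000969), as did its partner chain Il10ra. Ifngr2 read higher than medium with CpG-B (0.79 ± 0.17, adjusted p = 0.00218) and with CpG-A (0.54 ± 0.17, adjusted p = 0.0326), and it read -0.25 ± 0.15 between the CpG classes (adjusted p = 0.348).

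**Figure D4:**
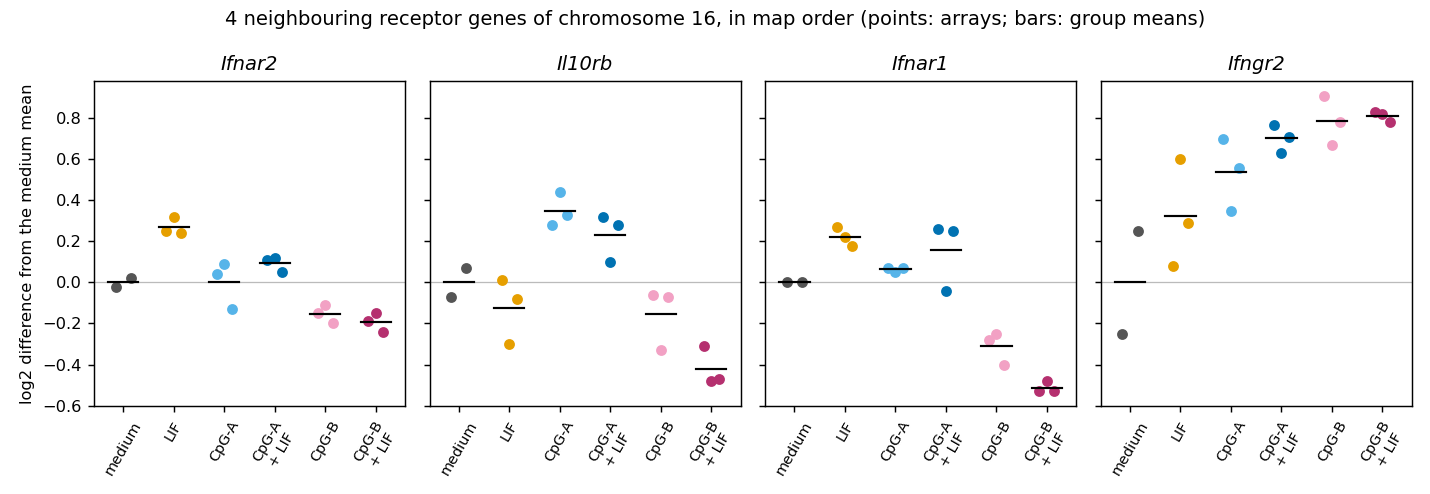
Log2 difference of each array from the medium mean for 4 receptor genes in their order on chromosome 16. Points are arrays and bars are group means. Ifnar2, Il10rb and Ifnar1 are lowest with CpG-B + LIF, and Ifngr2 lies above both medium arrays in all CpG groups.

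LIF added to either CpG left no receptor past the test. By limma, 0 of 10 were called for LIF added to CpG-A (0.00506% of all genes) and 0 of 10 for LIF added to CpG-B (0.0608%, of which 0.0152% higher, 0.0304% lower and 0.0152% open). For LIF added to CpG-A, 3 of 10 had an unadjusted p under 0.05 (Flt3, Kit and Il7r), as had 6.08% of all genes. For LIF added to CpG-B it was 1 of 10 (Il7r), and 7.74% of all genes. The lowest adjusted p was that of Il7r in each, 0.591 and 0.111. With the replicate number as a block, LIF added to CpG-B called 19 genes in place of 12, and 0 of the 10 receptors (Il7r at -0.62, adjusted p = 0.104). In the test of whether the LIF effect differed from that in medium, 1 of 10 was called under CpG-A (0.0506% of all genes) and 1 of 10 under CpG-B (0.137%), Il13ra1 in both with its direction open. Against LIF alone, 6 of 10 receptors were called for CpG-A + LIF (17.4% of all genes): 2 higher (6.23%), 2 lower (7.29%) and 2 open (3.85%). For CpG-B + LIF 6 of 10 were called (25.4%): 2 lower (9.02%) and 4 open (5.94%). These included Il7r, Il4ra, Csf2rb and Flt3 in each, and both comparisons share the LIF arrays.

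Partner chains, ligands, signal transducers and feedback genes were counted as lists chosen with earlier results of these data known. In CpG-A vs medium, 6 of 11 measured partner chains passed, against 16.7% of all genes (2 higher, 2 lower, 2 open). In CpG-B vs medium, with 19.2% of all genes, 5 of 11 were called (1 higher, 1 lower, 3 open). Ifngr1, which binds interferon gamma, read -1.46 ± 0.18 (or 1.87) and -1.30 ± 0.18 (or 2.02) in them. Csf1r, the M-CSF receptor, read -1.48 ± 0.22 (or 1.84) and 1.45 ± 0.22 (or -1.87). Its CpG-A vs CpG-B reading was 0.39 ± 0.20, so these add up as -1.48 and -1.87 or as 1.84 and 1.45. Csf2rb2 was also open with CpG-B, at 1.47 ± 0.21 (or -1.85). Given its 0.85 in CpG-A vs CpG-B, its reading of -1.0 with CpG-A adds up with -1.85 and not with 1.47. Il6ra, the IL-6 receptor chain, read -0.75 ± 0.18 with CpG-A and -0.96 ± 0.18 with CpG-B. In LIF vs medium, with 0.810% of all genes, 1 partner chain was called, Ifngr1, at 0.83 ± 0.18 higher (adjusted p = 0.0349). Of 12 ligand genes, 2 were called with CpG-A and 1 with CpG-B, shares at or below those of all genes.

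Among 10 measured signal transducers, 4 were called in CpG-A vs medium (2 higher, 2 open), against 16.7% of all genes. In CpG-B vs medium 4 were called (2 higher, 1 lower, 1 open), against 19.2%. Stat2, which transduces type I interferon signals, read -1.6 ± 0.14 (or 1.73) with CpG-A and 0.88 ± 0.14 higher (or -2.44) with CpG-B. With the 0.85 of CpG-A vs CpG-B, these add up either as 1.73 and 0.88 or as -1.6 and -2.44. The nearest readings of -1.6 and 0.88 cannot both hold. Stat3, which transduces LIF and IL-10 signals, read 0.84 ± 0.12 higher with CpG-A and 0.38 ± 0.12 higher with CpG-B. Stat4 read 1.63 ± 0.24 (or -1.69) with CpG-A and -1.28 ± 0.24 (or 2.04) with CpG-B. Its CpG-A vs CpG-B reading was -0.41 ± 0.21, so these add up as 1.63 and 2.04 or as -1.69 and -1.28. Irf9, the partner of Stat2, read 0.88 ± 0.17 higher with CpG-A. Tyk2, the JAK kinase that binds IFNAR1, read -0.84 ± 0.17 with CpG-B (adjusted p = 0.00144). CpG-A vs CpG-B called 4 of 10 transducers (13.0% of all genes), all higher with CpG-A: Stat2 (0.85 ± 0.13), Stat3 (0.46 ± 0.11), Irf9 (0.62 ± 0.16) and Tyk2 (0.55 ± 0.15). The median over the 10 was 0.24, and over all genes 0.04.

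Of 12 feedback genes, 5 passed in CpG-A vs medium (3 higher, 1 lower, 1 open), 4 in CpG-B vs medium (2 lower, 2 open) and 1 in LIF vs medium (open), against 16.7%, 19.2% and 0.810% of all genes. Socs3, the inhibitor induced by STAT3 that restrains LIF and IL-6 signalling, was called in all 3 with its direction open. It read -1.38 ± 0.18 (or 1.94) with CpG-A, 1.61 ± 0.18 (or -1.71) with CpG-B and -1.49 ± 0.18 (or 1.83) with LIF (adjusted p = 0.000704). CpG-A vs CpG-B read 0.33 ± 0.16 for Socs3, so its CpG readings add up as -1.38 and -1.71 or as 1.94 and 1.61. The LIF effect on Socs3 under CpG-A and under CpG-B minus that in medium was 1.67 ± 0.24 (adjusted p = 0.021) and 1.6 ± 0.24 (adjusted p = 0.0092), also with no readable direction. Cbl, the ubiquitin ligase that removes FLT3 and KIT from the surface, read -1.07 ± 0.14 with CpG-A and -0.98 ± 0.14 with CpG-B. With CpG-A, Usp18, which dampens interferon receptor signalling, read 0.69 ± 0.15 higher and Cish, an inhibitor of STAT5 signalling, 0.69 ± 0.18 higher. With CpG-B, Socs2 read -1.36 ± 0.28 (or 1.96) and the adaptor gene Sh2b3 -0.39 ± 0.12.

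For the 4 receptors with the most calls, likeness to every other gene was measured over the 17 arrays as the length of the mean phase vector, which is 1 when digits move together exactly. Nearest to Flt3 were the nucleoporin gene Ranbp2 (0.935), the proteasome gene Psmd1 (0.931) and Ifrd1 (0.928), against a median of 0.378 over all genes. Nearest to Kit were Dok2, an adaptor of tyrosine kinases (0.898), Pltp (0.888) and Ifitm7 (0.865), with a median of 0.646. Il4ra was most like Parp8 (0.912), Kmo (0.911) and Tmem63a (0.906), with a median of 0.547, and Csf2rb most like Helz2 (0.910), Slc3a2 (0.909) and Lcp2 (0.909), with a median of 0.319. Among the receptors themselves, Ifnar1 and Ifnar2 had the highest value (0.955), then Csf2ra and Ifnar2 (0.885) and Kit and Il13ra1 (0.835). High values are common for genes of narrow range: the median over all genes was 0.81 for Ifnar1, and Ifnar1 was at rank 521 among all genes for Ifnar2. From the other side, Ifnar2 was at rank 45 for Ifnar1. For Il13ra1, Kit was at rank 4, and for Kit, Il13ra1 was at rank 19. These values share arrays and groups and are descriptions only.

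Of 14 markers of plasmacytoid dendritic cells, 12 were measured, and the lost levels do not allow a check that they were present. In CpG-A vs CpG-B 8 were called (13.0% of all genes), 7 higher with CpG-A (4.42%) and 1 open (2.40%). With LIF present 7 were called (16.9%), 4 higher (5.63%) and 3 open (3.27%). These moved with the receptors that read higher with CpG-A, and their part was not tested. Against medium, CpG-A called 7 of the 12 (3 higher, 2 lower, 2 open), CpG-B 9 (2 higher, 2 lower, 5 open) and LIF 1 (open). The shares of all genes called there were 16.7%, 19.2% and 0.810%. Of the macrophage markers 3 of 5 were called in CpG-A vs medium (3 open) and 3 of 5 in CpG-B vs medium (1 lower, 2 open). Of the neutrophil markers it was 2 of 6 (1 lower, 1 open) and 3 of 6 (1 lower, 2 open). In CpG-A + LIF vs CpG-B + LIF, with 16.9% of all genes called, 2 of 5 macrophage markers (1 higher, 1 open) and 1 of 6 neutrophil markers (higher) passed. The calls were 2 of 5 for B cell (2 open), 1 of 4 for T cell (open) and 0 of 4 for natural killer cell markers. For conventional dendritic cell markers it was 1 of 5 (higher).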

How the data were processed

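RNA of 17 cultures was measured on Affymetrix arrays. RMA, which corrects background, normalizes and summarises probes, is named per the submitters' processing notes; no version is stated. The deposited table holds 24680 probe sets as digits of an intensity without decimal mark, handled as a score: all of its 419560 cells but 1 are whole numbers of at most 10 digits. Of the probe sets, 21354 carry 1 gene symbol, 1275 several and 2051 none listed. Each of 19751 genes was taken from the probe set with the most accessions, with no filter.

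Log2 values were placed the shortest way to their group's circular mean over a period of 3.32. They were fitted in limma 3.58.1 (R 4.3.3) with 1 coefficient per group and moderated variances, leaving 11 residual degrees of freedom. P-values were adjusted over all genes by Benjamini-Hochberg, and each contrast was folded to its nearest reading. The median within-group SD was 0.19. The number of arrays limits the precision, and p-values measure the spread between these arrays, which may be technical. The steps were tested on simulated data.

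All 10 receptors are named. In the 4 lists, called genes are named for the comparisons described, at most 4 per list and comparison by adjusted p. Flt3l and Il10 beside their receptors, and Il10rb, Ifngr2 and Csf2rb2 as neighbours or relatives, are named in more comparisons, and the 3 most alike genes are given for the 4 receptors with the most calls. Receptors and lists were chosen with earlier results of these data known. The limit on direction is 2/3 of the largest reading, 1.66. Alternatives were a replicate block, leaving out arrays, circular medians, unfolding at the widest gap, only the groups compared, robust variances, centred arrays and a stricter limit on direction. Promoters are RefSeq sequences. Same-numbered arrays of different groups correlated between -0.08 and 0.24 in their deviations (40 pairs, 6 over 0.1), and the labels give each replicate number a numbered group without saying what it marks. For CpG-B and CpG-B + LIF all 3 same-numbered pairs were over 0.1 (0.13, 0.24 and 0.14), so these arrays were taken as paired. The blocked gene count and the blocked Il7r reading are given for LIF added to CpG-B. The other receptor readings given for that comparison are from the main fit, which holds no block. In no other comparison between groups were all pairs over 0.1.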

Additional observations from a re-analysis of the deposited data

Results flagged for a closer look

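The LIF effect on Il13ra1 differed between backgrounds in the test of the difference itself. LIF vs medium read 1.63, LIF added to CpG-A 0.31 and LIF added to CpG-B -0.25, and the differences from the LIF effect in medium were -1.33 under CpG-A (adjusted p = 0.0377) and -1.88 under CpG-B (adjusted p = 0.00149). Their direction is open, since the LIF reading in medium may also be -1.69. Each difference was folded to its own nearest reading in a check chosen after seeing the data, which gave -1.33 under CpG-A (adjusted p = 0.0586) and 1.44 under CpG-B (adjusted p = 0.0135). The difference under CpG-A lost its call without 1 of 11 arrays (adjusted p from 0.0519 to 0.212) and turned to between 1.92 and 1.94 without medium replicate 1, LIF replicate 1 or LIF replicate 2. Under CpG-B it turned to 1.38 without medium replicate 1 (adjusted p = 0.115), 1.39 without LIF replicate 1 and 1.37 without LIF replicate 2.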

How the results depend on the processing

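Of 96 readings and differences of the receptors, 96 kept their call, and their direction where called, under circular medians. The same held for 96 with centred arrays and 96 with robust variances. A change of sign in a reading called in neither fit was not counted. The differences between LIF effects were counted only for Il13ra1 and Il4ra, and under CpG-B also for Kit and Il7r. With the replicate block, LIF added to CpG-A called 12 genes (1 without it), LIF added to CpG-B 19 (12), and the LIF effects under CpG-A and CpG-B minus that in medium 30 (10) and 53 (27). The block turned 3 readings of Il13ra1 and made 2 others of it pass: LIF vs medium became -1.60 and the differences between LIF effects 1.91 and 1.35. Unfolding at the widest gap gave 9 genes for LIF added to CpG-A, and 36 and 52 for the differences. It turned Flt3 in CpG-B vs medium to 1.73 and Csf2rb in CpG-B + LIF vs LIF to -2.11. With only the groups compared, LIF vs medium called 17 genes (160 in the full fit), LIF added to CpG-A and to CpG-B 0 and 0, and the differences 0 and 17. These fits hold fewer arrays. Folding again, added after seeing the data, left 2 genes for the CpG-A difference and turned Il13ra1 in the CpG-B difference to 1.44. Leaving out 1 array gave 2128 to 3415 genes for CpG-A vs medium (lowest without medium replicate 1) and 2451 to 3927 for CpG-B vs medium (lowest without medium replicate 3). It gave 16 to 168 for LIF vs medium (lowest without medium replicate 3, 34 without medium replicate 1, 88 without LIF replicate 1), 0 to 4 for LIF added to CpG-A, 1 to 17 for LIF added to CpG-B, 1 to 31 for the CpG-A difference and 5 to 37 for the CpG-B difference. Leaving out 1 array moved Flt3 in CpG-B vs medium between -1.62 and 1.64, Csf2rb there between -1.56 and 1.61, and Il13ra1 in LIF vs medium between -1.64 and 1.63. The differences for Il13ra1 lay between -1.47 and 1.94 under CpG-A and between -1.98 and 1.39 under CpG-B. The stricter limit left 48 genes with a direction in LIF vs medium (98 otherwise). Each receptor has 1 probe set, so the alternative of other probe sets was not run. The cause of these changes was not tested. Signal over background cannot be read from digits.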
